A study of Drosophila melanogaster with 8 samples.

Results

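Eye pigment genes were examined in RNA-seq of adult fly heads, as the 9 genes of a fixed list of pigment transport and synthesis genes: *w*, *st*, *bw*, *v*, *cn*, *cd*, *Hn*, *pr* and *se*. All 9 were found by their symbol among the 16727 symbols of the count files, and 8 of them were among the 9633 genes with enough reads to be tested. The list was chosen partly on the genotype log2 fold change in these libraries, in which *w* had been seen among the genes with the largest rise, so the genotype values of the 9 genes are given as a description without p-values. The libraries came from 4 samples labelled Top3b26, a *Top3β* mutant made by remobilizing a P element, and 4 samples labelled w1118, the control, with replicates numbered 1 to 4 in each. The labels give pooled adult heads, collected by freezing and sieving, from flies of 1 to 2 weeks, without sex. According to the study, Top3b26 was generated in the w1118 background, so both groups are described as carrying that *w* allele, and the labels name no other allele at the pigment genes. The study's methods name fewer sets of independently prepared RNA samples than the 4 libraries of each group. Neither they nor the labels say which libraries came from separate collections of flies. The p-values therefore measure only the spread between these samples, which may be partly technical.

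The red-brown colour of the fly eye comes from the brown ommochromes and the red pteridines (drosopterins), which are stored in granules of the pigment cells, and ommochromes also in those of the photoreceptors. ABC transporter subunits encoded by *w*, *st* and *bw* load the granules: the *w* product pairs with that of *st* for ommochrome precursors and with that of *bw* for pteridine precursors. Enzymes such as those of *v*, *cn* and *cd* make ommochromes from tryptophan, and those of *pr*, *se* and *Hn* belong to pteridine metabolism. The allele *w1118* is a deletion in *w* known for white eyes.

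Depth, as the sum of counts over genes, ran between 4816757 and 6685891 for Top3b26 and between 3301976 and 7591510 for w1118, so that 3 counts were worth 0.449 to 0.623 CPM and 0.395 to 0.909 CPM (counts on a gene per 1000000 counts of the library), a floor for counting error only. The targeted gene *Top3β* (listed as Top3beta) was counted at 42.3 to 91.6 CPM in the Top3b26 libraries and 23.8 to 40.6 CPM in the w1118 libraries, against the direction a loss-of-function label would give, so the groups below are those of the labels. A pair of libraries stood apart in eye transcripts: the summed level of 12 photoreceptor markers (among them the main rhodopsin *ninaE* and the channel gene *trp*) was 3018 to 3277 CPM in Top3b26 replicates 1 and 2 and 26326 to 32156 CPM in Top3b26 replicates 3 and 4, against 35809 to 53187 CPM in the 4 w1118 libraries. None of the 12 was at 0 in any library. By mean CPM over the 4 libraries of a group, the rhodopsin gene *Rh6* alone of the 12 went the other way, at 278 to 480 CPM in Top3b26 and 197 to 248 CPM in w1118. In replicates 3 and 4 the rhodopsin gene *Rh4* was also higher in Top3b26 (1059 and 1160 CPM) than in w1118 (839 and 795 CPM). *Pdh*, a gene of the retinal pigment cells and the one marker found for them, was at 624 to 726 CPM in Top3b26 replicates 1 and 2 and 1487 to 1879 CPM in Top3b26 replicates 3 and 4, against 941 to 1869 CPM in w1118. Summed neuron markers (4 genes) were at 4818 to 7119 CPM in Top3b26 and 4115 to 5589 CPM in w1118, and summed glia markers (3 genes) at 532 to 644 CPM in Top3b26 and 452 to 535 CPM in w1118. The summed level of 5 fat body markers was 8807 to 15121 CPM in Top3b26 replicates 1 and 2 and 7654 to 10214 CPM in Top3b26 replicates 3 and 4, against 8582 to 11672 CPM in w1118 replicates 1 and 2 and 34561 to 47072 CPM in w1118 replicates 3 and 4. The male-specific RNAs *roX1* and *roX2* summed to 3712 to 4786 CPM in Top3b26 replicates 1 and 2 and 1527 to 1843 CPM in Top3b26 replicates 3 and 4, against 3141 to 3233 CPM and 1063 to 1347 CPM in the same replicates of w1118. Most of the fat body sum came from the yolk protein genes *Yp1*, *Yp2* and *Yp3*, at 19891, 10359 and 12887 CPM in w1118 replicate 4. Yolk proteins are made by females and the labels give no sex, so a part of the sex mix in this sum was not tested. By mean CPM over the 4 libraries of a group, *Fbp1* alone of the fat body markers was higher in Top3b26, near the floor at 1.41 CPM against 0.356 CPM in w1118. In replicates 1 and 2 alone, the 4 tested fat body markers all had positive log2 fold changes. *Lsp2* was there at 282 and 525 CPM in Top3b26, against 136 and 74.2 CPM in w1118. In heads taken whole, fewer cells of a type and less RNA per cell cannot be told apart. Count files of replicates 1 and 2 open with a header line in both groups and those of replicates 3 and 4 do not, and these sets are compared separately below. Results are given with and without Top3b26 replicates 1 and 2.

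*w* (FBgn0003996, X, 2790599 to 2796466 in dm6, minus strand, 6 exons) had a count of 33, 33, 37 and 51 in the Top3b26 libraries, replicates 1 to 4, and 5, 4, 4 and 6 in the w1118 libraries. Scaled to the library, this was 5.92, 4.94, 7.68 and 7.82 CPM in Top3b26, against 0.792, 1.21, 0.635 and 0.790 CPM in w1118. Every Top3b26 library lay above every w1118 library, as was the case for 7.64% of all tested genes. The means were 6.59 ± 1.40 CPM in Top3b26 and 0.857 ± 0.247 CPM in w1118 (SD, n = 4 each), and the w1118 counts lay only just above the 3-count floor. The log2 fold change was 2.85 with a standard error of 0.31 (7.21-fold). Replicates 3 and 4 gave 3.29 (standard error 0.35), replicates 1 and 2 gave 2.34 (0.55), and the value was 3.17 (0.30) when Top3b26 replicates 1 and 2 were left out. Which transcript the reads on *w* came from was not tested, since only counts per gene were used. *w* lies within *kirre*, a cell adhesion gene on the opposite strand, and shares 0 exon bases with it. The strand setting of the counting is not given in the sources used here. *kirre* itself was at 111 ± 27.1 CPM in Top3b26 and 126 ± 49.2 CPM in w1118 (SD, n = 4 each). In log2 terms *kirre* differed by -0.30 (standard error 0.24, adjusted p = 0.65 from edgeR). By the same test, replicates 3 and 4 gave -0.03 (0.11, adjusted p = 0.91) and replicates 1 and 2 gave -0.49 (0.14, adjusted p = 0.018). Without Top3b26 replicates 1 and 2 *kirre* was at -0.52 (0.31).

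**Figure D1:**
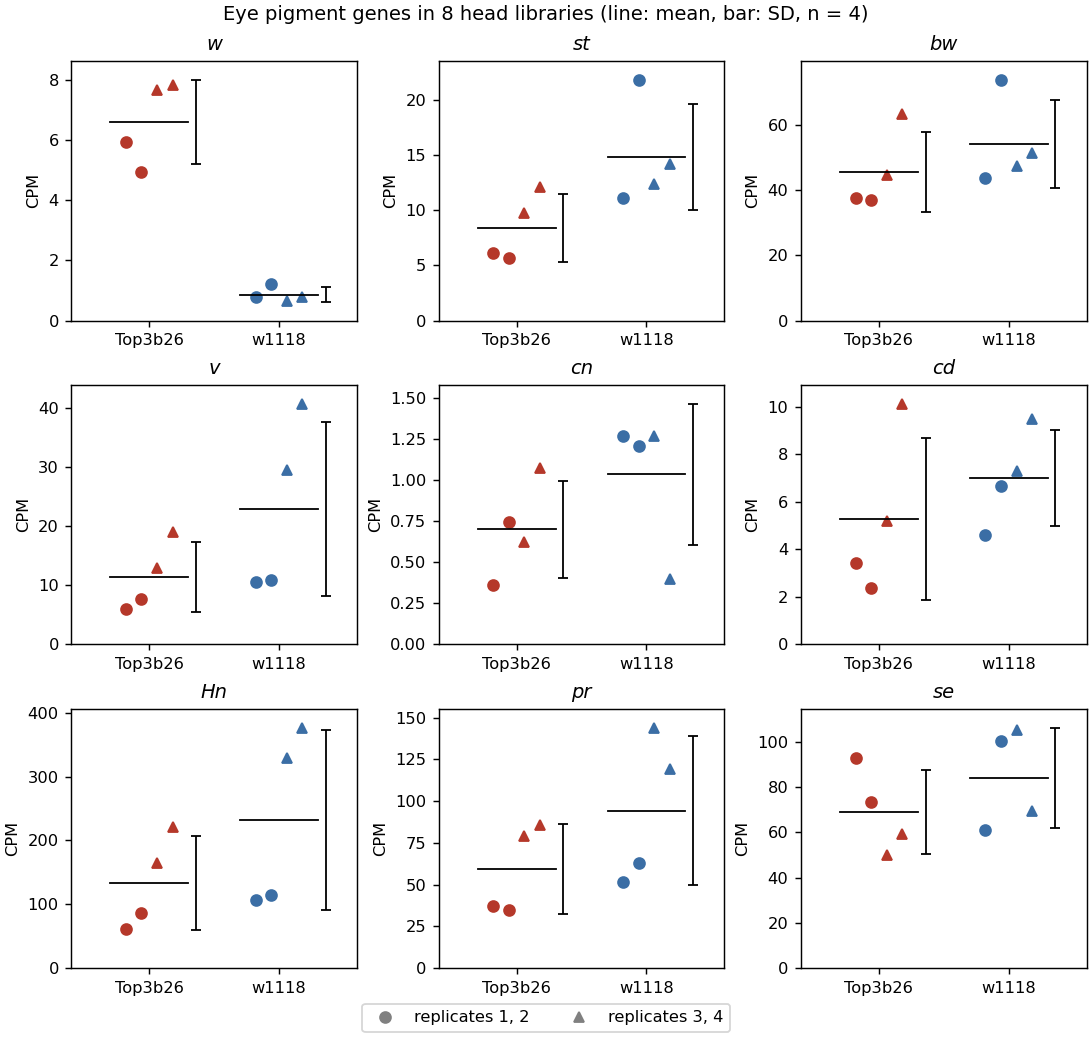
Level of each of the 9 pigment genes in CPM (linear axis from 0) in the 4 Top3b26 and the 4 w1118 libraries; circles are replicates 1 and 2, triangles replicates 3 and 4, horizontal lines the mean and vertical bars the SD (n = 4). *w* is at 4.94 to 7.82 CPM in Top3b26 and 0.635 to 1.21 CPM in w1118, while the groups of the other genes overlap.

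*st* (3L, 16497651 to 16500460, 7 exons), the partner of *w* for ommochrome precursors, had 6.10, 5.68, 9.76 and 12.1 CPM in Top3b26, against 11.1, 21.8, 12.4 and 14.2 CPM in w1118. Of the 4 Top3b26 libraries, 3 lay below all w1118 libraries and the groups met at one value. Its log2 fold change was -0.91 (standard error 0.32), -0.38 (0.18) in replicates 3 and 4, -1.56 (0.32) in replicates 1 and 2 and -0.44 (0.28) without Top3b26 replicates 1 and 2, so the value was closer to 0 without that pair. *bw* (2R, 23527805 to 23538499, 9 exons), the partner for pteridine precursors, had 37.5, 36.9, 44.6 and 63.2 CPM in Top3b26, against 43.5, 73.6, 47.3 and 51.4 CPM in w1118. Only the Top3b26 libraries of replicates 1 and 2 were below the w1118 range, and the log2 fold change of -0.35 (standard error 0.24) split into 0.031 (0.15) for replicates 3 and 4 and -0.77 (0.19) for replicates 1 and 2. Without Top3b26 replicates 1 and 2 it was -0.02 (0.24). *bw* shares 456 exon bases with *mi* on the other strand, a gene at 39.1 ± 2.44 CPM in Top3b26 and 37.7 ± 5.40 CPM in w1118 (SD, n = 4 each), so some of its reads could belong to either.

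Because the transporters work in pairs, their transcripts were also set against each other within each library, per kb of exon, which takes library size out. *w* over *st* was 0.886, 0.792, 0.718 and 0.589 in Top3b26, against 0.0652, 0.0507, 0.0468 and 0.0507 in w1118. *w* over *bw* was 0.144 to 0.200 in Top3b26 and 0.0156 to 0.0212 in w1118. Thus *w* had the lowest value of these 3 transcripts in every library. It was 1.13- to 1.70-fold under *st* in Top3b26 and 15.3- to 21.4-fold under it in w1118. In Top3b26 replicates 1 to 3 the counts of *w* and *st* were 33 and 34, 33 and 38, and 37 and 47. Counting error alone could give such differences, so their order there is not settled. The exon length of *w* was that of the annotated gene in both groups. The mean log2 ratio of *w* to *st* differed by 3.80 between the genotypes (3.74 in replicates 3 and 4, 3.87 in replicates 1 and 2), and that of *w* to *bw* by 3.21 (3.34 and 3.07 in the same order). The spread within a genotype was 0.18 to 0.25 (SD, n = 4). *bw* over *st* was 4.82, 5.09, 3.59 and 4.09 in Top3b26, against 3.08, 2.65, 2.99 and 2.83 in w1118. These libraries did not overlap either, so *st* was lower relative to *bw* in all Top3b26 libraries. The mean log2 ratio of *bw* to *st* differed by 0.40 between the genotypes in replicates 3 and 4 and by 0.80 in replicates 1 and 2, the set whose Top3b26 libraries were lowest in photoreceptor markers, and the part of those markers in it was not tested.

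**Figure D2:**
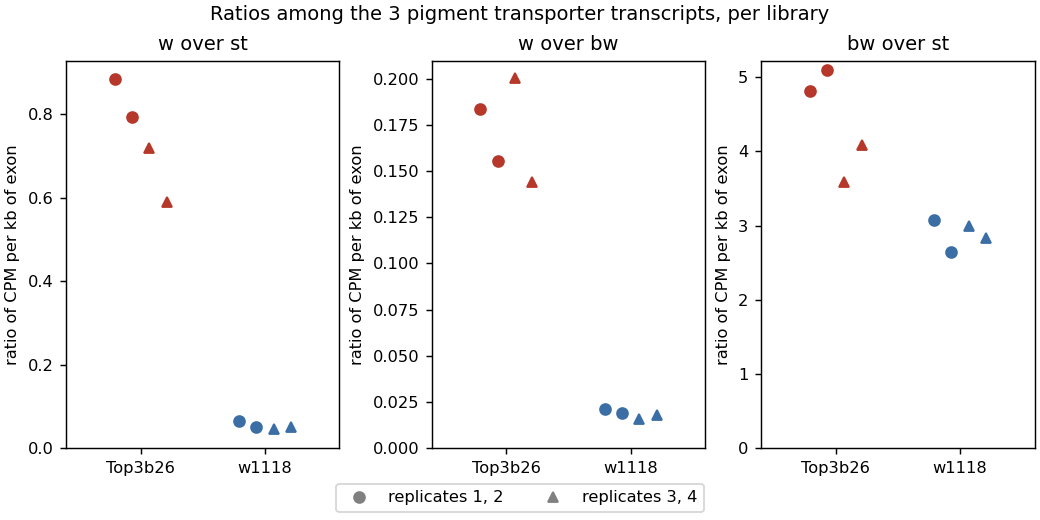
Ratios of CPM per kb of exon between *w*, *st* and *bw* in each library (linear axes from 0), Top3b26 to the left of w1118; circles are replicates 1 and 2, triangles replicates 3 and 4. All 3 ratios are higher in every Top3b26 library than in any w1118 library, with *w* over *st* at 0.589 to 0.886 in Top3b26 and 0.0468 to 0.0652 in w1118.

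Ommochrome synthesis begins with *v* (X, 10923972 to 10925631, 6 exons), the tryptophan dioxygenase gene. *v* had 5.92, 7.63, 12.9 and 19.0 CPM in Top3b26, against 10.6, 10.9, 29.5 and 40.7 CPM in w1118. The groups overlapped over all 8 libraries, yet in each set of replicates both Top3b26 libraries were below both w1118 libraries. The log2 fold change of *v* was -1.17 (standard error 0.56). Replicates 3 and 4 gave -1.23 (0.20) and replicates 1 and 2 gave -0.80 (0.30), with -0.61 (0.63) when Top3b26 replicates 1 and 2 were left out, a fit in which w1118 replicates 1 and 2 had no counterpart. *cn* (2R, 7782797 to 7785067, 3 exons), the kynurenine monooxygenase gene, was close to the limit of detection, with counts of 2, 5, 3 and 7 in Top3b26 and 8, 4, 8 and 3 in w1118. The low-count filter removed it, and without that filter its log2 fold change was -0.59 (standard error 0.55), so a difference between 17 counts over the Top3b26 libraries and 23 over the w1118 libraries was not detectable at this depth. An antisense RNA, CR45108, covers 1229 of its exon bases and had 38 counts in Top3b26 and 22 in w1118. *cd* (3R, 22694959 to 22697990, 4 exons), a haem peroxidase gene placed at the end of the pathway, had 3.41, 2.39, 5.19 and 10.1 CPM in Top3b26, against 4.59, 6.66, 7.31 and 9.48 CPM in w1118. The ranges of *cd* overlapped, and its log2 fold change of -0.53 (standard error 0.47) turned to 0.089 (0.39) without Top3b26 replicates 1 and 2.

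In pteridine metabolism, *Hn* (3L, 7760453 to 7763166, 6 exons), the phenylalanine hydroxylase gene, was the most strongly counted of the 9. It had 60.9, 86.2, 164 and 222 CPM in Top3b26, against 107, 115, 330 and 376 CPM in w1118. *pr* (2L, 20073719 to 20075458, 5 exons), the pyruvoyl tetrahydropterin synthase gene, had 37.3, 35.0, 79.1 and 86.0 CPM in Top3b26, against 51.5, 63.0, 144 and 119 CPM in w1118. For both genes, the Top3b26 libraries were the lower ones within each set of replicates, and replicates 3 and 4 of Top3b26 were above replicates 1 and 2 of w1118. For these 2 genes and *v*, the highest levels were in w1118 replicates 3 and 4. Those were also the libraries with the highest sum of fat body markers, mostly yolk protein genes. The part of these markers in the result was not tested. The log2 fold change over all libraries was -0.93 (standard error 0.57) for *Hn* and -0.80 (0.46) for *pr*. Within sets the spread was smaller: for *Hn*, replicates 3 and 4 gave -0.97 (0.14) and replicates 1 and 2 gave -0.73 (0.16), while for *pr* these were -0.77 (0.11) and -0.80 (0.16) in the same order. Without Top3b26 replicates 1 and 2, and so with the sets out of balance, *Hn* was at -0.33 (0.60) and *pr* at -0.25 (0.45). *se* (3L, 8520552 to 8521489, 3 exons), a glutathione S-transferase gene needed for drosopterin, behaved otherwise, with 93.0, 73.6, 50.2 and 59.3 CPM in Top3b26, against 61.0, 101, 105 and 69.6 CPM in w1118. Its log2 fold change was -0.43 (standard error 0.22), with -0.77 (0.17) in replicates 3 and 4, -0.08 (0.18) in replicates 1 and 2 and -0.65 (0.26) without Top3b26 replicates 1 and 2.

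A gene counted as called where edgeR's quasi-likelihood test gave an adjusted p up to 0.05 and a fold change of 1.5 or more. Of the 8 tested pigment genes, *w* was called higher (0.249% of all tested genes were) and 0 were called lower (0.664% of all), with *st* the one other gene at an unadjusted p up to 0.05. DESeq2 called *w* higher (0.623% of all) and 0 lower (1.79% of all), as did limma voom (0.239% and 0.654% of all). The 7 tested genes other than *w* were all below 0 on the log2 scale (median -0.80), where 51.1% of all tested genes were negative. With the replicate number as a block, *v* (-1.08, standard error 0.16), *Hn* (-0.88, 0.12) and *pr* (-0.79, 0.11) were called lower (2.91% of all tested genes were), and *w* remained higher at 2.87 (0.32; 0.914% of all were called higher). With the set as a term in place of the number, the same 3 were called lower (4.18% of all) and *w* higher (1.41% of all). In replicates 3 and 4 alone, *v*, *Hn*, *pr* and *se* were called lower (5.95% of all) and *w* higher (1.52% of all). In replicates 1 and 2 alone, *st*, *bw*, *Hn* and *pr* were called lower (7.03% of all) and *w* higher (3.5% of all). Over all 8 libraries 0 of the 9 genes lay fully below w1118 in CPM, as did 2.58% of all tested genes. *st*, *v*, *Hn* and *pr* were the genes whose Top3b26 libraries lay below the w1118 libraries in CPM within both sets, as did 5.97% of all tested genes, and *w* lay above in both, as did 22.8% of all. Without Top3b26 replicates 1 and 2, *w* was called higher (0.0709% of all) and 0 were called lower (0.203% of all), with *se* at an unadjusted p up to 0.05. For *st* and *se*, no share over all genes at that unadjusted p is given. Leaving out 1 library moved several of these values by over 1.5 times, with 0 of the 7 called lower in any such fit. Without w1118 replicate 4, *v* was at -0.69, *Hn* at -0.56 and *cd* at -0.29, and without w1118 replicate 3, *pr* was at -0.51 and *se* at -0.27. *bw* was at -0.22 without Top3b26 replicate 1 or 2 and -0.19 without w1118 replicate 2, against -0.58 without Top3b26 replicate 4. *cd* was at -0.33 without Top3b26 replicate 1 and -0.25 without Top3b26 replicate 2, against -1.12 without Top3b26 replicate 4. Since this contrast was in view when the list was made, these counts describe the genes and are no test of them.

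**Figure D3:**
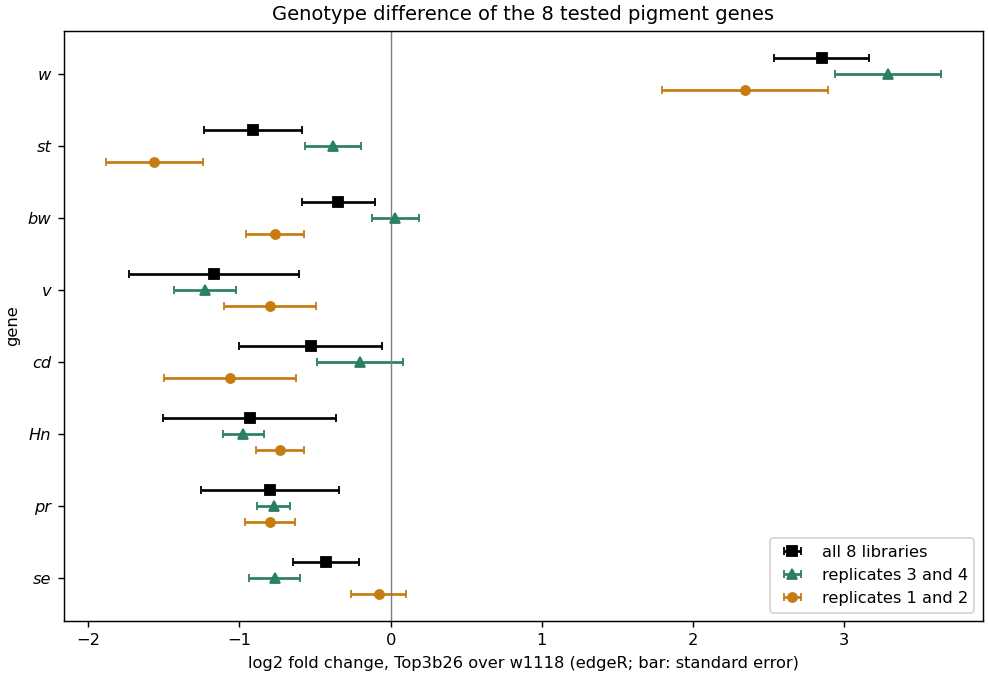
log2 fold change of the 8 tested pigment genes, Top3b26 over w1118, with standard errors from edgeR, for all 8 libraries (squares), replicates 3 and 4 (triangles) and replicates 1 and 2 (circles). *w* is at 2.34 to 3.29 in the 3 fits, and the other genes lie between -1.56 and 0.031.

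Whether the genotype difference itself varied between the sets of replicates was examined with an interaction term in edgeR. The genes and the sets had been chosen with earlier results of these data known. The p-values here and for the difference between the sets below are therefore a description and no independent test. Of the 8 tested genes, 0 passed at an adjusted p up to 0.05, where 7.31% of all tested genes did. An unadjusted p up to 0.05 was reached by 3, for which no share over all genes is given. Those 3 were *st*, with an interaction of 1.13 (standard error 0.40, adjusted p = 0.11), *bw* with 0.76 (0.28, adjusted p = 0.13) and *se* with -0.72 (0.29, adjusted p = 0.16), where a positive value means a higher log2 fold change in replicates 3 and 4. limma voom also passed 0 of the 8, and without the low-count filter, which brings in *cn*, edgeR passed *st*, *bw* and *se* of the 9 (adjusted p = 0.017, 0.0087 and 0.0051), where 6.85% of 14342 genes passed. In that fit *cn* was at 1.22 (1.25, adjusted p = 0.79). For *w* the interaction was 0.91 (0.70, adjusted p = 0.52), and for *v*, *Hn* and *pr* it was -0.47, -0.28 and -0.01 (adjusted p = 0.51, 0.57 and 0.98). The photoreceptor markers moved with the sets in the same fit, as 12 of 12 passed, with a median interaction of 3.01, and *Pdh* was at 0.62 (0.21, adjusted p = 0.086). Their part in the values of *st* and *bw* was not tested.

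A difference between the sets that both genotypes shared stood out in 4 of the genes. With genotype as a term, *v*, *cd*, *Hn* and *pr* were higher in replicates 3 and 4 than in replicates 1 and 2 by edgeR's quasi-likelihood test, as were 12.3% of all tested genes, and 0 were lower (6.32% of all). *Hn* differed by 1.70 on the log2 scale (standard error 0.14, adjusted p = 8.3e-06), *v* by 1.66 (0.19, adjusted p = 8.2e-05), *pr* by 1.37 (0.10, adjusted p = 3.5e-06) and *cd* by 1.18 (0.28, adjusted p = 0.0083). Their mean CPM in replicates 3 and 4 was 2.63, 2.35, 2.28 and 2.64 times that in replicates 1 and 2 in Top3b26 (in the order *Hn*, *v*, *pr*, *cd*), and 3.18, 3.27, 2.30 and 1.49 times in w1118. The 3 transporters and *se* did not pass, with *w* at 0.51 (adjusted p = 0.15), *st* at 0.44 (0.23), *bw* at 0.32 (0.23) and *se* at -0.07 (0.82). *Pdh* was higher in replicates 3 and 4 as well, by 1.18 (standard error 0.16, adjusted p = 0.00026), and *Pu*, the GTP cyclohydrolase gene at the entry to pteridine synthesis, by 1.54 (0.12, adjusted p = 4.9e-06). The roX RNAs were lower in replicates 3 and 4 of both genotypes, and the summed fat body markers were higher in those of w1118. Their part in the differences between the sets was not tested. What distinguishes the sets beyond the header line, such as a collection or a sequencing run, is not given in the sources used here.

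The resemblance of the profiles was measured as the root mean square difference of log2(CPM + 1), centred on each gene's mean, over the 8 libraries. Of the 9632 other tested genes, *Hn* was the nearest to *v* (0.141), and *v* was at rank 2 from *Hn*, though one gene makes ommochromes and the other belongs to pteridine metabolism. *pr* was nearest to *Hn* among the members (0.281, rank 39), and *cd* to *pr* (0.359, rank 162). *bw* was at rank 39 from *st* (0.289), while *st* was at rank 613 from *bw*. *se* had no near member, with *bw* the closest at rank 5038. *w* was far from all of them, as *bw*, its closest member, was at rank 7672 (1.14). The 5 genes nearest to *w* were CR45484 (0.199), CG31817 (0.358), *ssx* (0.410), *tyn* (0.437) and CG31205 (0.451). All 5 were higher in Top3b26, which follows from choosing them by nearness to *w*. With a pseudocount of 0.1 only CG31817 and CG31205 stayed among the 5. These ranks describe 8 libraries that share genotype and set, and say nothing of a common control.

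**Figure D4:**
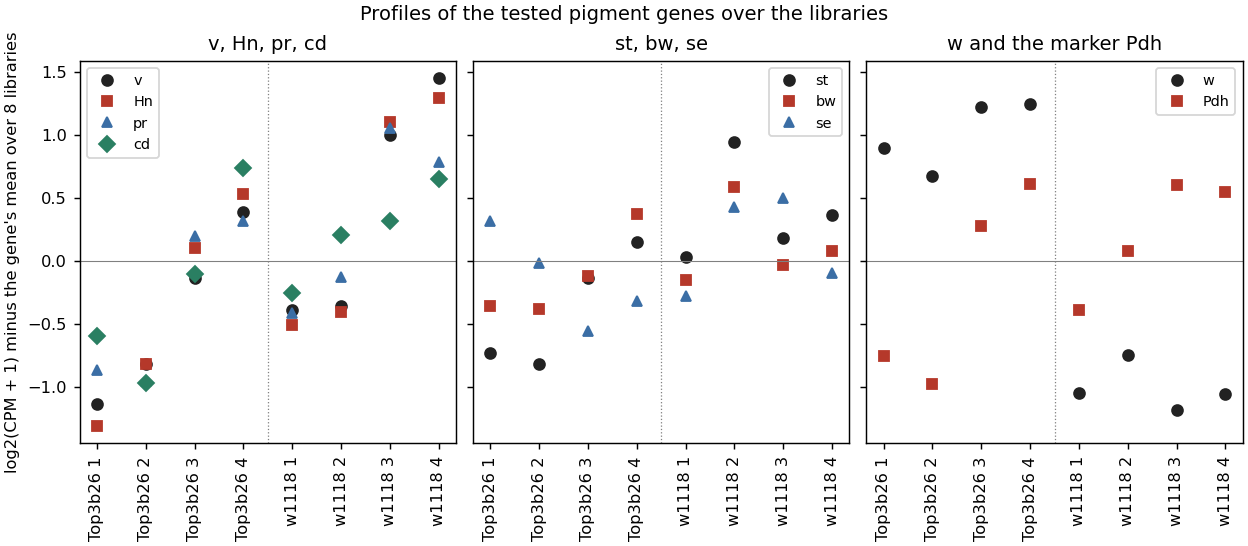
Level of each tested pigment gene and of the pigment cell marker *Pdh* in each library, as log2(CPM + 1) minus the gene's mean over the 8 libraries, with Top3b26 replicates 1 to 4 left of the dotted line and w1118 replicates 1 to 4 right of it. *v* and *Hn* lie close together in every library (root mean square difference 0.141), with replicates 3 and 4 above replicates 1 and 2 in both genotypes, while *w* is above its mean in all Top3b26 libraries and below it in all w1118 libraries.

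By level per kb of exon, the order over all 8 libraries was *se*, *Hn*, *pr*, *bw*, *v*, *st*, *cd*, *w* and *cn*. The 3 pteridine genes led, with 83.7 ± 22.6 (*se*), 63.0 ± 34.8 (*Hn*) and 55.3 ± 25.1 (*pr*) CPM per kb in Top3b26, and 102 ± 26.9, 110 ± 66.7 and 88.0 ± 41.3 CPM per kb in w1118 (SD, n = 4 each). These 3 did not differ beyond their spread. *bw* followed at 16.6 ± 4.47 CPM per kb in Top3b26 and 19.7 ± 4.92 in w1118 and *v* at 8.70 ± 4.52 and 17.6 ± 11.3, where *bw* and *v* overlapped within the spread. *st* was at 3.92 ± 1.43 CPM per kb in Top3b26 and 6.93 ± 2.24 in w1118, and its highest libraries overlapped the lowest of *v*. *w* changed place between the genotypes: at 2.80 ± 0.60 CPM per kb in Top3b26 it was above *cd* (2.02 ± 1.31), though within its spread, and at 0.364 ± 0.105 in w1118 it was below *cn* (0.579 ± 0.239), also within the spread.

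Other genes of the pigment pathways were taken by their role, but with earlier results of these data known. Their counts and p-values are therefore a description. Of the 38 listed genes, 36 were found and all 36 were tested. Without the block, 0 were called higher (0.249% of all tested genes were) and 0 lower (0.664% of all). An unadjusted p up to 0.05 from edgeR was reached by 6, for which no share over all genes is given. The median log2 fold change was -0.06 against -0.01 over all tested genes. DESeq2 called *Dhpr* and CG4822 lower (1.79% of all tested genes were), and limma voom 0 of the 36 (0.654% of all). With the replicate block the same 2 were called lower (2.91% of all) and 0 higher (0.914% of all). *Dhpr*, the dihydropteridine reductase gene, had 25.7 to 33.6 CPM in Top3b26 and 36.6 to 47.9 CPM in w1118, without overlap. Its log2 fold change was -0.64 with the block (standard error 0.14, adjusted p = 0.041 from edgeR) and -0.65 without it (0.15, adjusted p = 0.12). CG4822, an ABC transporter gene of the same subfamily as *w*, had 29.4 to 37.6 CPM in Top3b26 and 44.9 to 51.2 CPM in w1118. It was at -0.63 with the block (0.12, adjusted p = 0.025) and -0.62 without it (0.13, adjusted p = 0.082). Both genes kept their direction without Top3b26 replicates 1 and 2 (-0.67 and -0.46, adjusted p = 0.36 and 0.32 from edgeR).

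By role, the 10 further pteridine genes had 8 negative and 2 positive log2 fold changes (median -0.10, from -0.65 to 0.14). *Pu*, the most strongly expressed of them per kb, was at 501 ± 288 CPM in Top3b26 and 446 ± 203 CPM in w1118 (SD, n = 4 each). In log2 terms it differed by 0.05 (standard error 0.51, adjusted p = 0.98 from edgeR), and by -0.03 (0.13, adjusted p = 0.92) with the block. Of the 2 further genes listed with ommochrome synthesis, *KFase*, the kynurenine formamidase gene, was at -0.26 (0.22, adjusted p = 0.68). The other, CG6950, was at -0.30 (0.15, adjusted p = 0.48). CG6950 is now named *Kyat*, for kynurenine aminotransferase, and is not a step of the route to the pigment. The 12 genes of granule trafficking, such as the AP-3 adaptor genes *g*, *rb*, *cm* and *or*, were split into 6 negative and 6 positive with a median of -0.01. The most strongly expressed, *ltd*, a Rab GTPase gene of pigment granules, had 156, 158, 308 and 405 CPM in Top3b26, against 310, 414, 351 and 367 CPM in w1118, so that Top3b26 replicates 1 and 2 were the lowest and the other 6 libraries overlapped. Its log2 fold change was -0.58 (0.34, adjusted p = 0.54), and -0.05 (0.18, adjusted p = 0.94) without that pair. The 12 other ABCG transporter genes, relatives of *w*, were 6 negative and 6 positive with a median of -0.02 and a range of -0.62 to 0.51. Their most strongly expressed, CG3164, was at 0.01 (0.29, adjusted p = 1.0).

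**Figure D5:**
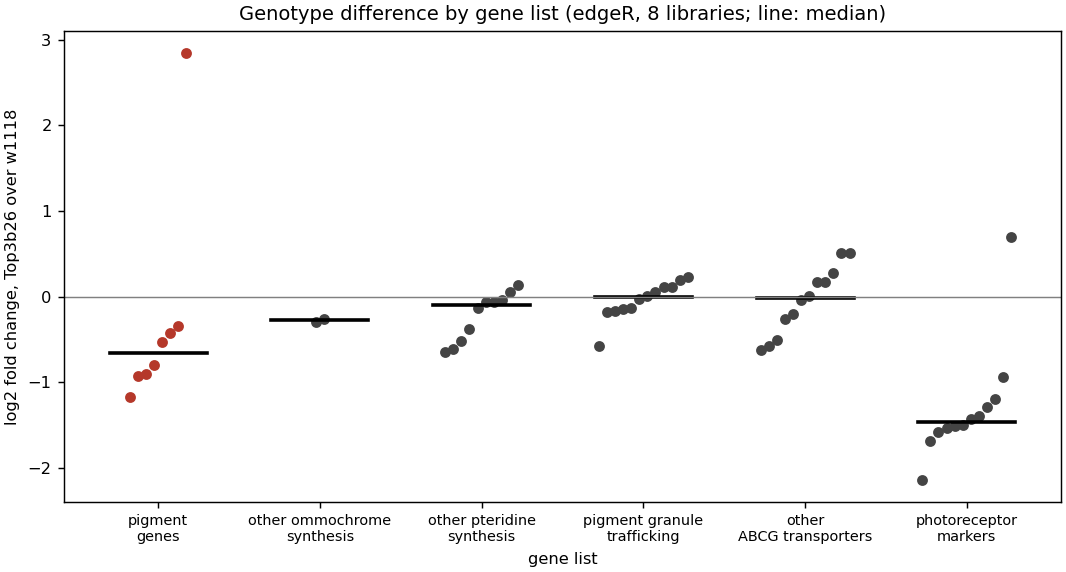
log2 fold change (edgeR, 8 libraries, Top3b26 over w1118) of every tested gene of 6 lists, each point a gene and each line the median of its list. Of the pigment genes, shown in red, *w* is at 2.85 and the other 7 are below 0, the 36 pathway and ABCG genes lie between -0.65 and 0.51, and 11 of the 12 photoreceptor markers are below 0.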

How the data were processed

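RNA was sequenced from 8 samples of adult heads. The authors mapped reads to dm6 with Tophat (TopHat2 2.1.1 in the submitters' processing notes, another version in the study's methods, which of them made these files is not given) and deposited whole-number counts per gene symbol, 1 file per library, not normalized. The counting tool and strand setting are not given in the sources used here. In w1118 replicate 2 the header says CPM, but the values are whole numbers and were used as counts. Summary rows stayed out of library sizes: reads on no gene were 43.1% to 48.9% and reads with several alignments 16.6% to 30.4% of those listed.

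Of 16727 symbols, 12512 matched the annotation (dm6 coordinates) by symbol and 3996 by an older symbol. Exon length is the union of exons.

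Counts were tested with edgeR 4.0.16 in R 4.3.3 (filterByExpr by genotype, TMM, quasi-likelihood test, Benjamini-Hochberg over all tested genes). Standard errors were derived from the F statistic and the fold change. CPM in the text are scaled to the library total, and a pseudocount of 1 was added before log2. DESeq2 1.42.0, limma 3.58.1, other scalings, no filter, the replicate block and left-out libraries were alternatives. The main fit, those with the block or the set as a term, DESeq2, limma voom and the interaction ran first on simulated data. The other fits did not. Deviations of same-numbered libraries correlated across genes (r = 0.437 to 0.647 over 4 pairs), as did those of other numbers in the same set (0.527 to 0.622), so the numbers pair the samples at the level of the set.

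The pigment genes and all lists were chosen with earlier results of these data known, as were the sets of replicates (files with and without a header line). Named were the 9 genes, *Top3β*, list genes called with or without the block, the most expressed per kb of each list, and the 5 genes nearest to *w*. Replicates of a group all differed by more than counting noise.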

Additional observations from a re-analysis of the deposited data

Results flagged for a closer look

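In *cn*, the lowest of the 4 w1118 libraries, replicate 4, was at 0.395 CPM, far from the others at 1.21 to 1.27 CPM. This is 3 counts against 4 to 8, and of the 18 groups of 4 examined for a far sample 1 was so placed, where chance gives about 1 in 20.

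The genotype log2 fold change of *ry*, the xanthine dehydrogenase gene, differed between the sets of replicates by -0.95 (standard error 0.22, adjusted p = 0.014 in edgeR's interaction test). Replicates 3 and 4 gave -0.996 and replicates 1 and 2 gave -0.076. For *ltd* the difference was 1.20 (standard error 0.20, adjusted p = 0.00085), with -0.11 in replicates 3 and 4 and -1.35 in replicates 1 and 2.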

How the results depend on the processing

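*w* was chosen for its rise, so its calls describe it and are no independent support: it was called higher under every alternative run, with a log2 fold change of 2.72 to 3.00 over the 8 fits that each left out a library. The ratios of *w* moved by less than the spread between replicates, also with Top3b26 replicates 1 and 2 left out (3.62 for *w* over *st*, 3.21 for *w* over *bw*), and over the 8 fits they ranged from 3.71 to 3.91 and from 3.13 to 3.29. Pigment genes called lower were 0 without a block (0.664% of all tested genes were). They were 3 with the replicate block (2.91% of all) and 3 with the set as a term (4.18% of all). In replicates 3 and 4 alone they were 4 (5.95% of all), and in replicates 1 and 2 alone 4 (7.03% of all). In each of the 8 fits they were 0, where 29 to 48 of all tested genes were called lower. Of the 36 tested genes of the pathway and ABCG transporter lists, 0 were called lower without a block (0.664% of all). With DESeq2 2 were (1.79% of all tested genes), with the replicate block 2 (2.91% of all) and with the set as a term 2 (4.18% of all). In replicates 3 and 4 alone, 3 were called lower (*ry*, *Dhpr* and *DhpD*, 5.95% of all). In replicates 1 and 2 alone, 3 were (*ltd* and the ABCG genes CG4822 and CG31689, 7.03% of all). The interaction passed 3 of the 9 pigment genes without the low-count filter, where 6.85% of all genes passed. *bw* turned to 0.031 in replicates 3 and 4 alone, and *cd* to 0.089 without Top3b26 replicates 1 and 2. The cause was not tested.

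Over all genes, 24 were called higher and 64 lower. These were 60 and 172 with DESeq2, 88 and 280 with the replicate block, 136 and 403 with the set as a term, 147 and 575 in replicates 3 and 4 alone, 339 and 681 in replicates 1 and 2 alone, 7 and 20 without Top3b26 replicates 1 and 2 (an alternative chosen after seeing the data, as was leaving out libraries from the ratios), and 12 to 15 and 29 to 48 over the 8 fits. Scaling by library totals moved the median log2 fold change of all genes to 0.12 and the share of positive values to 66.6%, against 48.9%, without turning a pigment gene round. Low counts limit *w* in w1118 and *cn*.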
